A study of Rattus norvegicus with 38 samples.

Results

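The spread of lung transcript levels among individual rats was measured within 4 groups that differ in breeding line and in exposure, together with the way genes rise and fall together from one animal to the next. All 38 of the 38 arrays of the series enter, and the quantities are the standard deviation (SD) of each gene within a group and the correlation of its departures from the group mean with those of other genes. The animals were N:NIH rats, female and 34 weeks old, of a line bred for high running capacity (HCR) or of a line bred for low running capacity (LCR). Each breathed cigarette smoke or, as sham controls, room air on 5 days per week for 12 weeks. There were 7 sham and 12 smoke animals of each line, and animals are named here by group and by the number in their title. Pieces of about 25 mg of lung gave total RNA, which was hybridised to Affymetrix Rat Genome 230 2.0 arrays, and levels are log2(intensity + 16), for 14217 genes with 1 probe set each. Nothing in the labels says how the animals were housed or which were litter mates, so the p-values measure the spread between these animals alone.

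Smoke reaches the lung as a mixture of polycyclic hydrocarbons, oxidants and particles, and animals meet it with several separate programmes. Ligands of the aryl hydrocarbon receptor (AhR) switch on Cyp1a1 and its neighbours, oxidants release the transcription factor NRF2 onto genes of glutathione and thioredoxin metabolism, and alveolar macrophages and epithelium emit chemokines that bring in neutrophils and monocytes. A programme can rise to the same level in every animal, or its level can depend on the animal. The HCR and LCR lines were bred from a genetically heterogeneous rat stock and kept as outbred populations, so animals of one line do not share one genotype.

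Because lung pieces are bulk samples, fewer cells of a type and less RNA per cell cannot be told apart. Correlations between whole arrays lay between 0.9625 and 0.9969, and no pair of arrays shared more than 0.0611% of its values. The heart muscle list mean stood highest on 6 arrays, called muscle arrays here (HCR sham 0433, LCR sham 0442 and HCR smoke 0410, 0414, 0415 and 0417), from 1.44 to 3.67 log2 units above the average over all arrays, and these enter all values unless stated. HCR sham 0432 came next with 0.98 and was not among them. Fat genes stood high on only some of the 6, with 2.47 in HCR sham 0433, 0.61 in 0415 and 0.46 in 0417 but -0.04 in 0414, beside 0.50 in HCR sham 0432. The skeletal muscle list mean of HCR sham 0433 was 4.67 log2 units above the average over all arrays, and the next highest HCR sham animal stood at -0.01.

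Smoke did not change the overall width of the transcriptome among animals by a detectable amount in either line. The median SD over all genes was 0.124 in HCR sham and 0.117 in HCR smoke animals, a ratio of 0.948 with an adjusted p of 0.725 in an exact permutation test. In LCR animals it was 0.0986 under sham and 0.110 under smoke, a ratio of 1.12 with an adjusted p of 0.524 in the same exact test. The mean variance was 0.0513 in HCR sham, 0.0418 in HCR smoke, 0.0351 in LCR sham and 0.0263 in LCR smoke animals. Low runners therefore had the smaller mean variance under both exposures, with a ratio to HCR of 0.684 under sham and of 0.628 under smoke. The smoke ratio had a permutation p of 0.0142 before adjustment and of 0.228 after Benjamini-Hochberg adjustment over 16 tests, and the sham ratio had an exact permutation p of 0.292. Without the 6 muscle arrays the mean variances were 0.0412, 0.0306, 0.0219 and 0.0263 in the same order, so that LCR smoke animals no longer had the lowest value. None of the 16 tests of median SD, mean variance, mean correlation and first component share passed the threshold of 0.05 after adjustment.

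A small number of strongly variable genes made up much of this variance. The 100 most variable genes held 30.4% of the summed variance in HCR sham, 29.6% in HCR smoke, 36.9% in LCR sham and 18.2% in LCR smoke animals. An SD over 1 log2 unit was reached by 78, 59, 63 and 19 genes in the same order. Leaving out the muscle arrays brought these counts to 28, 29, 18 and 19. The LCR smoke group held none of those arrays, so its count could not move.

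**Figure D1:**
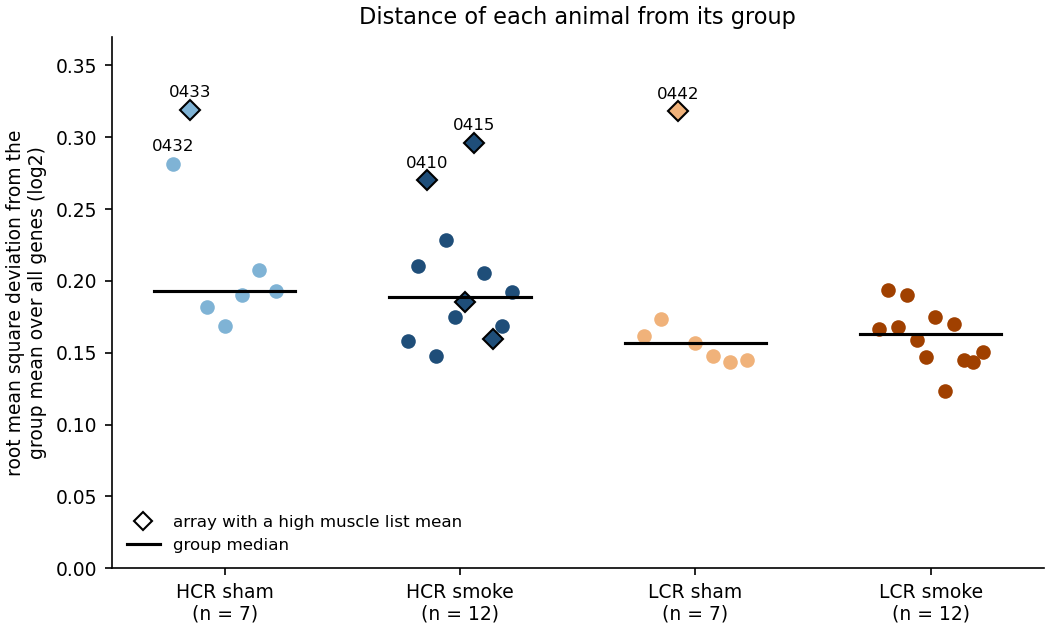
Root-mean-square deviation of each animal from its group mean over all 14217 genes (y axis, log2 units) for the 4 groups (x axis); each point is 1 animal, diamonds mark the 6 arrays with high muscle list means and the line is the group median. The highest HCR sham, HCR smoke and LCR sham animals reach 0.319, 0.296 and 0.318, whereas no LCR smoke animal is above 0.194.

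The root-mean-square deviation of an animal from its group mean, taken over all genes, had medians of 0.193 in HCR sham, 0.189 in HCR smoke, 0.157 in LCR sham and 0.163 in LCR smoke animals. It ran from 0.169 to 0.319, from 0.148 to 0.296, from 0.144 to 0.318 and from 0.123 to 0.194 in that order, as the plot of deviation by animal shows. The highest value of each of the first 3 groups came from an array with high muscle genes. HCR sham 0433 held 28.4% of the variance of its group and 71.3% of its first principal component, with Myl1, Ckm and Tnnc2, all of skeletal muscle, furthest out. LCR sham 0442 held 41.2% of the variance of its group and 82.5% of the first component, with Myl7, Myl4 and Myh6 of heart muscle furthest out. HCR smoke 0415 and 0410 held 17.5% and 14.5%. HCR sham 0432 deviated by 0.282 and held 22.1% of the variance of its group. Its heart list mean of 0.98 was second in that group to the 1.92 of animal 0433.

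Animals also differed in how far they carried the smoke response. The 59 genes whose mean rose by at least 1 log2 unit in both lines rose by 1.78 units on average in HCR smoke animals, from 0.94 in animal 0419 through a median of 1.96 to 2.17 in animal 0418. In LCR smoke animals the same genes rose by 2.11 units, from 1.79 in animal 0420 through a median of 2.09 to 2.36 in animal 0421. Expressed as a share of the group's mean rise, HCR animals covered 52.5% to 122% with an SD of 25.1%, and LCR animals 84.7% to 112% with an SD of 9.02%. Since these genes were chosen for their rise, the shares are a description and were not tested. Sham animals stayed between -0.32 and 0.24 units on the same genes, below every smoke animal of either line.

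The lower end of the HCR range was made up of 3 animals. HCR smoke animals were scored on the 130 genes that rose by at least 1 unit in LCR animals. A mean rise in HCR animals was also required, which removed none of the 130. Animal 0419 reached 42.9% of the group's mean rise, animal 0409 reached 54.1% and animal 0416 reached 73.9%. The next animal, 0410, stood at 102%, the median at 109% and the highest animal, 0418, at 130%. LCR smoke animals were scored on 70 of the 72 genes raised by at least 1 unit in HCR animals, those that also rose in LCR animals. They lay between 87.1% and 118% with no such gap. In animal 0419, 19 of the 130 genes were below the HCR sham mean, against 9 in animal 0409 and 7 in animal 0416. The SD of the HCR score was 28.0% over all 12 animals and 34.5% over the 8 without high muscle genes. None of the 3 low animals is among the 6 muscle arrays, and their root-mean-square deviations of 0.193 (0419), 0.210 (0409) and 0.206 (0416) were near the group median.

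**Figure D2:**
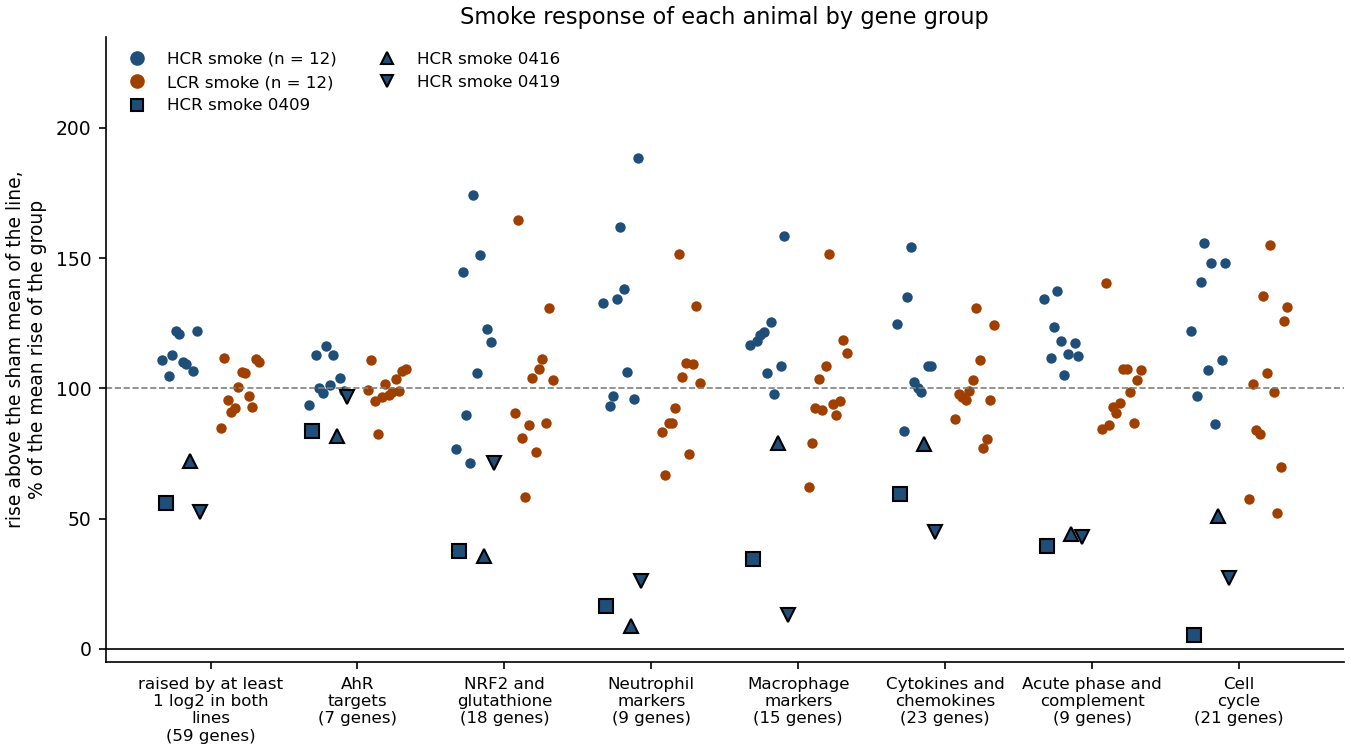
Rise of each smoke animal above the sham mean of its line, as a percent of the mean rise of its group (y axis), for 8 gene groups (x axis) in HCR smoke and LCR smoke animals; each point is 1 animal, and squares, upward and downward triangles mark HCR smoke 0409, 0416 and 0419. AhR targets keep all 24 animals between 81.6% and 116%, whereas for neutrophil, macrophage and cell cycle genes HCR animals reach down to 8.98%, 12.9% and 5.38%.

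Shares of the mean rise depend on the size of that rise, so the SD among animals in log2 units is given beside them. The 7 AhR target genes, with the largest mean rise of these lists (2.57 units in HCR and 2.67 in LCR), ran from 81.6% to 116% of it in HCR and from 82.6% to 111% in LCR smoke animals. In log2 units their SD was 0.276 in HCR, close to the 0.278 of cytokines and the 0.295 of macrophage genes and above the 0.135 of cell cycle genes. In LCR animals the AhR SD of 0.195 was above those of cytokines (0.139) and cell cycle genes (0.134), so AhR genes were not the steadiest list on that scale. The 18 genes of NRF2 and glutathione metabolism had SDs of 0.425 and 0.288 log2 units and ran from 35.8% in HCR smoke 0416 and 37.6% in 0409 to 174% in 0413, and from 58.4% in LCR smoke 0423 to 165% in 0421. Animal 0419, the lowest on the shared response, reached 71.4% on these genes, so the order of the animals was not the same for each programme. For the 15 macrophage genes animal 0419 was lowest with 12.9%, followed by 0409 with 34.6%, and animal 0416 reached 79.0%. For the 23 cytokines and chemokines 0419 was again lowest with 44.8%, and for the 21 cell cycle genes 0409 was lowest with 5.38%. The 9 neutrophil genes stood at 8.98% in 0416, 16.5% in 0409 and 26.2% in 0419, but these genes already ranged from -0.70 to 1.21 units around the mean in HCR sham animals. The low animals also lay inside the HCR sham range of -0.38 to 0.31 units for macrophage genes (0.094 in 0419 and 0.25 in 0409) and of -0.15 to 0.12 units for cell cycle genes (0.015 in 0409 and 0.075 in 0419). LCR smoke animals reached at least 52.2% for each of these lists.

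To ask which single genes changed their spread, the absolute deviation of each animal from its group mean was compared between groups with limma over all 14217 genes. Smoke changed the spread of 72 genes in HCR animals (0.506% of the genes tested), larger for 10 (0.0703%) and smaller for 62 (0.436%). In LCR animals it changed the spread of 14 genes (0.0985%), larger for 6 (0.0422%) and smaller for 8 (0.0563%). At an unadjusted p under 0.05 the counts were 1769 and 1429 genes. Deviations taken from the group median, a more cautious choice, gave 0 genes with limma in both lines, with 826 and 688 at an unadjusted p under 0.05. A limma fit of the HCR groups alone also gave 0 genes, with 1308 at an unadjusted p under 0.05. The calls below are therefore those of one choice of test, and the levels by animal are printed beside them.

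**Figure D3:**
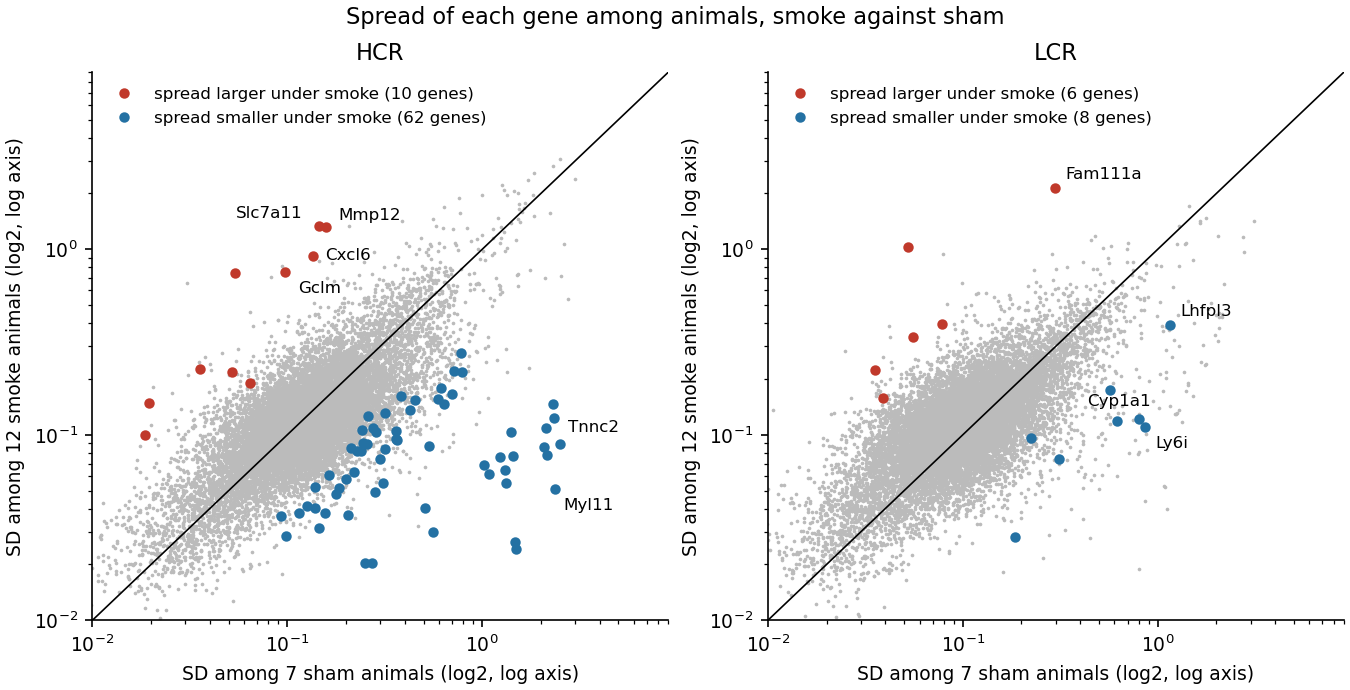
SD of each gene among the 12 smoke animals (y axis) against its SD among the 7 sham animals (x axis), both in log2 units on log axes, for HCR (left) and LCR (right); grey points are all 14217 genes, red and blue points the genes whose spread was called larger or smaller under smoke, and the line marks equal SD. Slc7a11, Mmp12, Cxcl6 and Gclm lie above the line in HCR, Tnnc2 and Myl11 far below it, and Fam111a stands highest among the called genes in LCR.

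Among genes that rose strongly in HCR animals, most also became more variable. Of the 72 genes that rose by at least 1 log2 unit, 61 (84.7%) had a higher SD under smoke, with a median log2 ratio of SDs of 0.79, beside 46.5% and -0.06 over all genes. The ratio was 0.97 without the muscle arrays. In LCR animals 80 of 130 such genes (61.5%) had the higher SD under smoke, close to the 59.0% of all genes. Their median log2 ratio was 0.29 beside 0.15 over all genes. The pseudocount compresses differences at the low end of the scale, where many such genes lie in sham animals.

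The genes called more variable in HCR animals under smoke include members of the NRF2 and inflammatory programmes. Slc7a11, the cystine transporter that feeds glutathione synthesis, lay between 4.53 and 4.97 in HCR sham animals with a median of 4.73, and between 5.07 in animal 0416 and 9.34 in animal 0413 with a median of 7.23 in HCR smoke animals. Every smoke animal was above every sham animal, but the lowest smoke animals came close to the sham range. Its SD went from 0.145 to 1.33, a difference in mean deviation of 1.03 ± 0.25 (SE) with an adjusted p of 0.0453 in limma. In LCR animals it lay between 4.52 and 4.76 under sham and between 5.85 and 9.12 under smoke, with an SD of 0.943 that was not called different from sham.

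Gclm, the modifier subunit of the enzyme that makes glutathione's first intermediate, is expressed well above the low end of the scale. It lay between 7.73 and 8.05 (median 7.88) in HCR sham and between 8.03 in animal 0416 and 10.29 in animal 0415 (median 9.35) in HCR smoke animals. Animal 0416 thus overlapped the sham range while the others stood above it. The SD rose from 0.0977 to 0.756, a difference of 0.60 ± 0.13 with an adjusted p of 0.0283 in limma, and of 0.0542 without HCR sham 0433. Mmp12, the macrophage elastase, spread from 6.12 in animal 0419 to 10.87 in animal 0418 around a median of 8.89, after 5.36 to 5.74 in sham animals (adjusted p 0.0463 in limma). Cxcl6, a chemokine that draws neutrophils, spread from 5.98 in animal 0419 to 8.86 in animal 0408 after 4.53 to 4.96 in sham animals (adjusted p 0.0453 in limma). Animal 0419 was lowest for both, as it was for the macrophage and chemokine lists. Hsd17b2, which inactivates sex steroids, spread from 4.68 to 6.79, highest in animal 0415, after 4.49 to 4.66 (adjusted p 0.0157 in limma). Krt6c, a keratin of stressed epithelium, completed the better known members with an SD of 0.0359 under sham and 0.227 under smoke. Its adjusted p in limma was 0.0084, with 0.0249 without the muscle arrays and 0.0937 with the muscle and fat list means as covariates. All its levels lay near the low end of the scale, and it was named after its values were seen.

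These calls were close to the threshold. The calls of Slc7a11, Mmp12 and Cxcl6 held in 22, 15 and 18 of the 38 fits that each left out 1 animal, and their adjusted p rose to at most 0.0839, 0.0860 and 0.0826 there. With a pseudocount of 1 the adjusted p in limma was 0.0932, 0.0880 and 0.131 for these 3 genes, and 0.0336 for Gclm and 0.0379 for Hsd17b2. Hsd17b2 was not called without HCR smoke 0410 or 0415, with an adjusted p of up to 0.0629. Orm1, an acute phase protein, Lpo, the airway lactoperoxidase, and Ccl2, the chemokine of monocytes, had SDs of 1.34, 1.42 and 0.969 in HCR smoke animals beside 0.425, 0.417 and 0.426 in LCR smoke animals, and were not called between exposures (adjusted p 0.0542, 0.120 and 0.112 in limma) or between lines (0.101, 0.0872 and 0.227). Animal 0419 was the lowest HCR smoke animal for each of them, with 4.95, 5.46 and 6.27 beside medians of 7.48, 8.75 and 8.13. Without the 6 muscle arrays the adjusted p was 0.0249 for Mmp12, 0.0745 for Cxcl6, 0.140 for Gclm, 0.146 for Slc7a11 and 0.239 for Hsd17b2. With the muscle and fat list means as covariates none of these genes was called. The adjusted p in limma was then 0.176 for Mmp12, 0.299 for Cxcl6, 0.638 for Gclm, 0.620 for Slc7a11 and 0.722 for Hsd17b2. The interaction test, which compares the change in spread between the lines, called 1 gene (0.00703%), Fam181b, and gave an adjusted p of 0.80 for Slc7a11, 0.669 for Gclm and 0.485 for Mmp12, so none of these was shown to differ between the lines.

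Most members of the NRF2 and glutathione list had the wider spread under smoke. Of its 18 measured members, 13 had the higher SD under smoke in HCR and 16 in LCR animals, beside 46.5% and 59.0% of all genes, with median log2 ratios of SDs of 0.86 and 0.60 beside -0.06 and 0.15 over all genes. Slc7a11 and Gclm were called in HCR animals and no member in LCR animals. Srxn1, which repairs oxidised peroxiredoxins, had an SD of 0.146 under sham and 0.863 under smoke in HCR animals, from 7.20 in animal 0409 to 10.27 in animal 0413 (adjusted p 0.104 in limma). Txnrd1, the cytosolic thioredoxin reductase, lay between 9.24 in animal 0409 and 10.62 in animal 0413 in HCR smoke and between 9.53 in animal 0423 and 10.69 in animal 0421 in LCR smoke animals. Hmox1, the inducible haem oxygenase, was likewise lowest in 0409 with 8.41 and highest in 0413 with 11.46. Animals 0409 and 0413 thus marked the ends of the HCR smoke range for Srxn1, Txnrd1 and Hmox1. In LCR smoke animals 0423 and 0421 did so for Srxn1 and Txnrd1. Other members had other ends. Gclm ran from 0416 to 0415 in HCR and from 0426 to 0421 in LCR smoke animals, and Gstp1 from 0412 to 0410 in HCR smoke animals.

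NRF2 binds the antioxidant response element, whose core letters TGACNNNGC were searched on both strands from 250 bases before to 50 bases after each start site. They were present in 6 of the 16 members of the list with a listed promoter, where a gene counts if any of its promoters has them. Counted in the same way, they were present in 15.2% of the 11733 array genes with a listed promoter. Counted by promoter, the share was 12.1% of all 33469. The windows below (RefSeq, GRCr8, written along the strand of the gene) are shown for the 2 called members and for Txnrd1 and Gstp1, list members that were not called, with the element in capitals. Gclm lies at chr2:213031885-213032184 (+) with the element starting at position -172 from the start site, Txnrd1 at chr7:22755855-22756154 (-) with it at -78, Gstp1 at chr1:210769656-210769955 (-) with it at -61, and Slc7a11 at chr2:136668215-136668514 (-) without these letters in the window.
Gclm: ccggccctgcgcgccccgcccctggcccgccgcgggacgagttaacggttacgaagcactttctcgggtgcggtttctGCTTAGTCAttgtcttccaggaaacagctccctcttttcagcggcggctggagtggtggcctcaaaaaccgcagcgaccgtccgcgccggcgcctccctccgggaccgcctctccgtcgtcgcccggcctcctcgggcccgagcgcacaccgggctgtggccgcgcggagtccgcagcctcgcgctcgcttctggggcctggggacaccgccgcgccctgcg
Txnrd1: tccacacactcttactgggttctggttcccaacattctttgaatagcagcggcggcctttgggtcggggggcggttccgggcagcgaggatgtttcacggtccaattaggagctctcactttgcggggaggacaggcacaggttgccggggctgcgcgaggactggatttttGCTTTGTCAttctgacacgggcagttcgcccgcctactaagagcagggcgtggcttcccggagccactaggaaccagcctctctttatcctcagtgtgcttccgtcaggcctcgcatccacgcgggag
Gstp1: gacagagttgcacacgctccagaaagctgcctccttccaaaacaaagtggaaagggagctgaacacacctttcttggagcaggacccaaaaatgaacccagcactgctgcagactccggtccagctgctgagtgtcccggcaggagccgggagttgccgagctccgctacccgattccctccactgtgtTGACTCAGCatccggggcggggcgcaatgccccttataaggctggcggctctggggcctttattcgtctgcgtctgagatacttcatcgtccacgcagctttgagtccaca
Slc7a11: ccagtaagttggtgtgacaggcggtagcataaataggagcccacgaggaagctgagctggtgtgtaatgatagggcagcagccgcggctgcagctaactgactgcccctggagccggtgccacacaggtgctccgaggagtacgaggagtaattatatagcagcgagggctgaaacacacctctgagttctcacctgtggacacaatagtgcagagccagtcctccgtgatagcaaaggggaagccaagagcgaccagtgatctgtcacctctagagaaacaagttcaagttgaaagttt
Gstp1, the pi-class glutathione transferase, had an SD of 0.140 in HCR sham and 0.177 in HCR smoke animals, far from the width of Gclm.

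For many of the 62 genes that became less variable in HCR animals under smoke, 1 sham animal stood far from the others. Of the 62, 49 had a mean level under 7, in the lower part of the scale. The share of all genes under that level is not given here, so the 49 are a description only. HCR sham 0433 was the furthest animal for 27 of the 62 and HCR sham 0432 for 16. Over all 14217 genes animal 0433 was furthest in its group for 14.5% and animal 0432 for 31.1%. Tnnc2, the troponin C of fast skeletal muscle, lay between 4.57 and 4.66 in 6 sham animals and at 11.25 in animal 0433, while all 12 smoke animals lay between 4.52 and 4.86. Its SD was 2.50 under sham and 0.089 under smoke, a difference of -1.69 ± 0.38 with an adjusted p of 0.0314 in limma. Myl11, Tnni2, Actn3, Myh4 and Myh2 of skeletal muscle and Ucp1, the uncoupling protein of brown fat, followed the same animal. Without animal 0433 the differences of Tnnc2, Myl11, Tnni2, Ucp1 and Myh4 turned above 0, to at most 0.05 for Tnni2, and 23 genes were called, 20 of them among the 72. In all, 8 of the 14 skeletal muscle genes and 2 of the 13 fat genes of the lists were among the called genes, beside 0.506% of all genes.

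Genes outside the muscle and fat lists were also among those that narrowed, named here after their values were seen. Edn1, the vasoconstrictor endothelin-1, lay between 6.95 and 8.69 (median 7.51) in HCR sham and between 7.78 and 8.77 (median 7.96) in HCR smoke animals, so the smoke values fell inside the sham range except for the top animal. Its SD was 0.782 under sham and 0.277 under smoke, a difference of -0.52 ± 0.10 with an adjusted p of 0.0084 in limma. Pard6g, a cell polarity protein, had SDs of 0.720 and 0.220, and Gnmt, a methyltransferase of methionine metabolism, 0.385 and 0.161, both with an adjusted p of 0.0084 in limma. Atf4, the transcription factor of the integrated stress response, lay between 10.55 and 11.16 in sham and between 10.91 and 11.04 in smoke animals (SDs of 0.204 and 0.0369, adjusted p 0.0463 in limma). Pnpla2, the triglyceride lipase, had SDs of 0.301 and 0.0736 (adjusted p 0.0158 in limma). The lowest sham value of Atf4 and of Pard6g came from animal 0432. Without the muscle arrays the adjusted p in limma was 0.0678 for Atf4 and 0.0991 for Pard6g, which were then not called, and at most 0.0249 for Edn1, Gnmt and Pnpla2. With the muscle and fat list means as covariates only Edn1 stayed called, with an adjusted p of 0.0469 in limma. It was 0.0575 for Pard6g, 0.0937 for Gnmt, 0.210 for Pnpla2 and 0.210 for Atf4.

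In LCR animals the genes that narrowed under smoke include the clearest AhR target. Cyp1a1, the cytochrome that oxidises polycyclic hydrocarbons, lay between 4.46 and 6.14 (median 4.74) in LCR sham and between 11.80 and 12.21 (median 12.11) in LCR smoke animals. The groups were far apart, and the wide sham group owed its width to animal 0443 with 6.14 and to a second animal with 5.46. The SD fell from 0.615 to 0.119, a difference of -0.43 ± 0.09 with an adjusted p of 0.0224 in limma. The call was lost without LCR sham 0440 or 0443, with an adjusted p of up to 0.445.

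Ly6i, a member of the Ly6 family of surface proteins, lay between 9.65 in animal 0441 and 12.00 (median 11.41) in LCR sham and between 12.28 and 12.68 (median 12.46) in LCR smoke animals. All smoke animals thus stood above all sham animals and within a far narrower range, with SDs of 0.861 and 0.110 (difference -0.69 ± 0.10, adjusted p 0.000141 in limma). Lhfpl3, of the tetraspan family, lay between 4.30 and 6.70 (median 6.29) in LCR sham animals, low in 0443, 0445 and 0446, with an SD of 1.16 beside 0.393 under smoke (adjusted p 4.5e-06 in limma). Both calls held in each of the 38 fits that left out 1 animal. Mis18a, needed to load the centromere histone, had SDs of 0.803 and 0.121 (adjusted p 0.000766 in limma, lost without LCR sham 0445 or 0446, with an adjusted p of up to 0.208). Fam181b had SDs of 0.186 and 0.0284 near the low end of the scale, and it was the gene whose change in spread differed between the lines (interaction -0.17 ± 0.0257, adjusted p 0.000802 in limma, 0.0697 without LCR sham 0443).

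Of the 6 genes that widened in LCR animals, Fam111a was the extreme case and is described with the genes of separate levels. Atp6v0a4, a subunit of the proton pump of intercalated and other acid-secreting cells, lay between 4.45 and 4.61 in LCR sham animals and between 4.51 and 7.34 (median 4.72) in LCR smoke animals, highest in animal 0428. Some smoke animals stood within or just above the sham range and others far above it (SDs of 0.0523 and 1.03, adjusted p 0.0457 in limma). That call held in 22 of the 38 fits that left out 1 animal, with an adjusted p of up to 0.116, and was lost without the muscle arrays (0.101). Tmem165, a Golgi ion transporter, widened from an SD of 0.0363 to 0.222 (adjusted p 0.00608 in limma) and its call held in all 38 fits but not with quantile normalization (0.0680), median-centred arrays (0.0664) or the muscle and fat list means as covariates (0.356). Its LCR smoke levels of 9.04 to 9.65 were above all LCR sham levels, which ended at 8.73.

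Between the lines, the spread of 29 genes differed under sham (0.204%), wider in LCR for 9 (0.0633%) and narrower for 20 (0.141%). Adipoq, Plin1 and Thrsp, all of fat cells and lipid synthesis, were narrower in LCR animals, and HCR sham 0433 was the highest animal for Adipoq and Thrsp with 7.22 and 10.50. With the muscle and fat list means as covariates the differences of Thrsp and Adipoq turned to 0.05 and 0.04, and without the muscle arrays none of these 3 genes was called (adjusted p 0.166, 0.159 and 0.207 in limma). Under smoke 3 genes differed (0.0211%), wider in LCR for 2 (0.0141%) and narrower for 1 (0.00703%). Pxmp4, a peroxisomal membrane protein, had SDs of 0.141 in HCR and 0.844 in LCR smoke animals (adjusted p 0.00209 in limma, 0.0540 without LCR smoke 0427). Retsat, the retinol saturase, had SDs of 0.171 and 0.580 (adjusted p 0.0135 in limma, 0.0523 without LCR smoke 0423 and 0.0656 without the muscle arrays). Rnf40, a ubiquitin ligase of histone H2B, was the gene narrower in LCR animals, with SDs of 0.429 and 0.114 (adjusted p 0.0135 in limma). Its call held in each fit that left out 1 animal and was lost without the muscle arrays (0.0888), 4 of which are in the wider HCR smoke group. Deviations from the group median gave 0 genes with limma for these line comparisons too, with 577 under sham and 689 under smoke at an unadjusted p under 0.05.

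**Figure D4:**
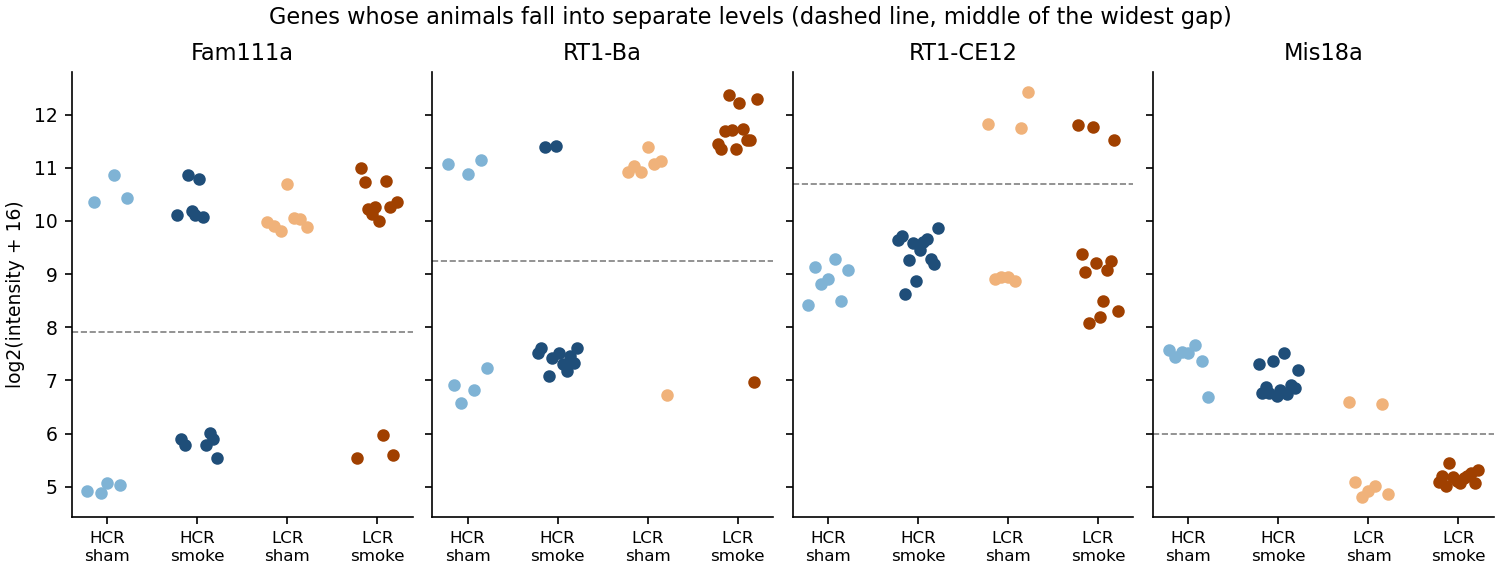
Level of Fam111a, RT1-Ba, RT1-CE12 and Mis18a (y axes, log2 of intensity + 16) in each animal of the 4 groups (x axes); each point is 1 animal and the dashed line is the middle of the widest gap between neighbouring values. Fam111a is high in 3 of 7 HCR sham and in 7 of 7 LCR sham animals, and RT1-CE12 is high in 6 LCR animals and in no HCR animal.

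Part of the largest spread came from genes that took separate levels in different animals. Over all 38 animals, 55 genes had a gap of at least 1 log2 unit between neighbouring values with at least 2 animals on each side. For 50 of them at least 1 group held animals on both sides. Most of the 55 were high only on muscle arrays. Among these, Fabp3, Mb, Ckmt2 and Ttn were high in HCR sham 0433, LCR sham 0442 and HCR smoke 0410 and 0415 alone. Cyp1a1 had the widest gap, 5.32 units, which parted all smoke from all sham animals. Fam111a, a protease that guards DNA replication and restricts viruses, had the next widest, 3.8 units between levels near 10.32 and 5.53. The high level was seen in 3 of 7 HCR sham, 6 of 12 HCR smoke, 7 of 7 LCR sham and 9 of 12 LCR smoke animals. Its SDs were 2.98, 2.39, 0.297 and 2.15 in that order. Its spread was therefore called smaller in LCR than in HCR sham animals (-2.75 ± 0.37, adjusted p 9.0e-05 in limma) and larger under smoke than under sham in LCR animals (1.64 ± 0.33, adjusted p 0.0224 in limma, in 28 of the 38 fits that left out 1 animal, up to 0.236 otherwise, and 0.0802 without the muscle arrays). The counts of high and low animals in LCR were 7 and 0 under sham and 9 and 3 under smoke.

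The major histocompatibility genes, RT1 in the rat, made up several of these genes. RT1-Ba, the alpha chain of a class II molecule, had a gap of 3.27 units between levels near 11.44 and 7.21, and the high level was seen in 3 sham and 2 smoke animals of HCR and in 6 sham and 11 smoke animals of LCR. RT1-CE12 and RT1-CE10, of class I, were high in the same 6 LCR animals (sham 0443, 0445 and 0446, smoke 0423, 0427 and 0428) and in no HCR animal. RT1-CE12 lay between 8.41 and 9.28 in HCR sham animals and between 8.87 and 12.42 in LCR sham animals, and its spread was called larger in LCR sham animals (1.35 ± 0.27, adjusted p 0.0141 in limma, up to 0.115 without 0443, 0445 or 0446). RT1-T24-3 was high in 2, 8, 3 and 3 animals of the 4 groups, and with RT1-Ba it was 1 of 2 genes with both levels in every group. RT1 genes have near-identical copies, so the probe sets can read several of them and these levels are uncertain. Mis18a was high in all HCR animals, in 2 of 7 LCR sham animals and in no LCR smoke animal, and Pxmp4 was high in 1 LCR sham and 4 LCR smoke animals and in no HCR animal.

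Departures of different genes went together in recognisable groups. The mean correlation of residuals over all gene pairs was 0.0232 in HCR sham, 0.0322 in HCR smoke, 0.00583 in LCR sham and 0.0220 in LCR smoke animals, and the first component held 34.4%, 38.5%, 49.5% and 26.1% of the variance. The share in LCR sham exceeded that in HCR sham animals by an exact permutation p of 0.0507, which was 0.406 after adjustment. As a fraction the shares differed by 0.151, and by -0.0218 without LCR sham 0442. Over the pairs of the NRF2 and glutathione list the mean correlation was 0.10 in HCR sham, 0.68 in HCR smoke, 0.31 in LCR sham and 0.65 in LCR smoke animals, beside 0.03 or less over all pairs. For the cell cycle list it was 0.27, 0.49, 0.15 and 0.53, and for cytokines 0.02, 0.27, 0.02 and 0.13. For 15 interferon genes it was 0.48, 0.49, 0.88 and 0.77, and for ciliated cell genes 0.80, 0.72, 0.75 and 0.68, high under both exposures. Groups of 7 and 12 animals give correlations of different precision, and these list means were not tested.

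**Figure D5:**
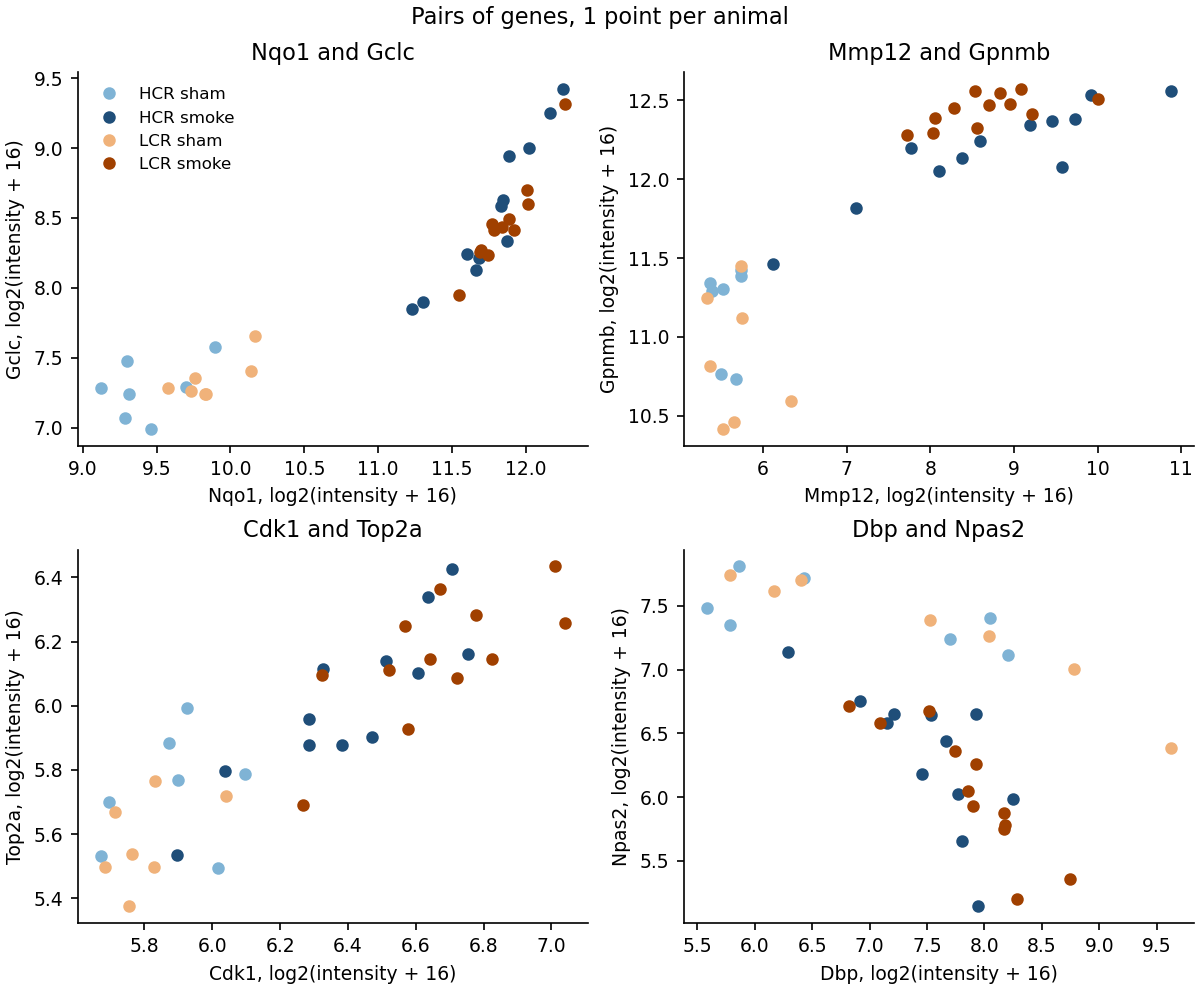
Levels of both genes of 4 pairs (log2 of intensity + 16 on both axes), Nqo1 with Gclc, Mmp12 with Gpnmb, Cdk1 with Top2a and Dbp with Npas2; each point is 1 animal, coloured by group. Nqo1 and Gclc rise together among the smoke animals of both lines, and Dbp and Npas2 run opposite to each other in all 4 groups.

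For 20 pairs of genes of 1 pathway or cell type, correlations were computed within each group, 80 in all, with permutation tests and Benjamini-Hochberg adjustment over the 80. Pearson's r passed for 7 pairs in HCR sham, 16 in HCR smoke, 7 in LCR sham and 12 in LCR smoke animals. A group of 7 needs a larger r to pass than a group of 12, so these counts are not compared between exposures. Muc5b and Bpifb1, for example, had r = 0.96 in LCR sham animals, which did not pass (exact permutation, adjusted p 0.0974). In LCR smoke animals their r of 0.59 passed (permutation, adjusted p 0.0444). Nqo1, the quinone reductase, and Gclc, the catalytic subunit of glutathione synthesis, had r = 0.94 and rho = 0.96 in HCR smoke animals (permutation, adjusted p of r 0.000229, of rho 0.00032), and r was 0.95 without the 2 animals furthest from the median of Nqo1. In LCR smoke animals they had r = 0.96 and rho = 0.88 (adjusted p 0.000229 and 0.00233), with 0.90 without the 2 furthest. In sham animals r was 0.42 in HCR and 0.75 in LCR, which did not pass, and the 2 furthest animals set both values (r of -0.51 and -0.29 without them).

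Mmp12 and Gpnmb, both of lipid-laden macrophages, had r = 0.91 and rho = 0.87 in HCR smoke animals (permutation, adjusted p 0.000364 and 0.00304) and 0.80 without the 2 furthest. In LCR smoke animals they had r = 0.63 and rho = 0.64 (adjusted p 0.0505 and 0.0750), and in sham animals -0.01 in HCR and -0.19 in LCR. Cdk1 and Top2a, both of dividing cells, had r = 0.88 and rho = 0.89 in HCR smoke animals (permutation, adjusted p 0.00109 and 0.00233), with 0.75 without the 2 furthest, and r = 0.71 and rho = 0.67 in LCR smoke animals (permutation, adjusted p 0.0192 and 0.0526). S100a8 and S100a9, the subunits of neutrophil calprotectin, went together in all 4 groups, with r of 0.99, 0.94, 0.97 and 0.89, and so did Acta2 and Myh11 of smooth muscle, with 0.98, 0.96, 0.98 and 0.95, and each of these r passed the permutation threshold after adjustment. Ckm and Acta1 of skeletal muscle passed in HCR smoke animals with r = 0.85 and rho = 0.59 (permutation, adjusted p 0.00238 and 0.0981), where r was -0.17 without the muscle arrays. In HCR sham animals they had r = 0.92, which did not pass (exact permutation, adjusted p 0.166) and was -0.46 without the muscle array. The change of r between sham and smoke animals of a line was tested for all 20 pairs in both lines, and none of the 40 tests passed after adjustment. The smallest unadjusted permutation p-values were 0.0133 and 0.0194, for Mmp12 with Gpnmb in HCR and LCR animals, both 0.311 after adjustment.

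Clock genes showed the opposite order, with the wider spread in sham animals of both lines. In the lung clock, BMAL1 with CLOCK or NPAS2 drives Per and Rev-erb (Nr1d1, Nr1d2) genes and the output factor Dbp, which then peak at another time of day than Bmal1 and Npas2. Over the 15 clock genes the median SD was 0.516 in HCR sham and 0.30 in HCR smoke, and 0.545 in LCR sham and 0.277 in LCR smoke animals. At an unadjusted p under 0.05, 5 members were narrower in HCR and 8 in LCR animals and none was wider, beside 8.88% narrower and 3.57% wider over all genes in HCR and 3.8% and 6.25% in LCR. None passed after adjustment. Dbp lay between 5.58 and 8.21 (median 6.43) in HCR sham and between 6.29 and 8.25 (median 7.60) in HCR smoke animals. It lay between 5.78 in animal 0446 and 9.62 in animal 0440 (median 7.52) in LCR sham and between 6.82 and 8.74 (median 7.91) in LCR smoke animals. The sham and smoke ranges overlapped, and the sham animals included both the lowest values and, in LCR, the highest. Nr1d1 had SDs of 1.04 and 0.294 in HCR and of 1.06 and 0.363 in LCR animals (adjusted p 0.0754 and 0.212 in limma).

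Dbp and Npas2 ran opposite to each other among the animals of each group, with r = -0.95 and rho = -0.96 in LCR sham animals (exact permutation, adjusted p 0.00238 and 0.0111; -0.98 without the 2 furthest) and r = -0.89 and rho = -0.96 in LCR smoke animals (permutation, adjusted p 0.000554 and 0.00032; -0.86 without the 2 furthest). In HCR animals r was -0.72 and rho -0.77 under smoke (permutation, adjusted p 0.0195 and 0.0180) and r was -0.64 under sham, which did not pass. Among the clock genes, the E-box CACGTG, the same on both strands, was present in 3 of the 13 members with a listed promoter. Counted by gene in the same way, it was present in 9.35% of the array genes with a listed promoter, and by promoter in 6.42% of all promoters. Of the 3 members, 1 was Nr1d1 (RefSeq, GRCr8, chr10:84229405-84229704, minus strand, the box in capitals at position -191 from the start site).
Nr1d1: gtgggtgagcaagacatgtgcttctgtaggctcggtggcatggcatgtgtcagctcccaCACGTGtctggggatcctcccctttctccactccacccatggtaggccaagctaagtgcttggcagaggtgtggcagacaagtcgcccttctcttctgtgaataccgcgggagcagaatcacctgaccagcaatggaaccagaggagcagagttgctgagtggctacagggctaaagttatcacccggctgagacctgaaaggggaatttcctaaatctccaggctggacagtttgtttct

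Many T cell and glucocorticoid-induced genes had a lower SD under smoke in HCR animals, although none passed the adjusted threshold. Of 12 T cell genes, 10 were narrower under smoke in HCR animals at an unadjusted p under 0.05, beside 8.88% of all genes, with a median log2 ratio of SDs of -1.11 beside -0.06 over all genes and -0.04 for the same genes in LCR animals. Cd4, the co-receptor of helper T cells, lay between 5.14 in animal 0432 and 6.31 in HCR sham and between 5.94 and 6.17 in HCR smoke animals (SDs of 0.394 and 0.0821, adjusted p 0.0678 in limma). Zap70, the kinase of the T cell receptor, had its highest HCR sham value, 7.42, in the same animal 0432, which was lowest for Cd4. Of 11 glucocorticoid-induced genes, 7 were narrower and 1 wider in HCR, and 1 narrower and 2 wider in LCR animals, without adjustment. The shares over all genes were 8.88% narrower and 3.57% wider in HCR and 3.8% and 6.25% in LCR. Ddit4, an inhibitor of mTOR, lay between 7.16 and 9.86 (median 9.01) in HCR sham and between 7.28 and 8.12 (median 7.78) in HCR smoke animals, with most sham animals above the smoke range (adjusted p 0.0633 in limma). Fkbp5, a co-chaperone of the glucocorticoid receptor, had SDs of 0.667 and 0.439 in HCR but 0.119 and 0.581 in LCR animals (adjusted p 0.324 and 0.241 in limma). The interaction test of Ddit4 and Cd4 gave an adjusted p of 0.270 and 0.303 in limma, so a difference between the lines was not shown.

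The spread of other cell type lists covered a wide range, and their differences between groups were not tested as lists. Heart muscle genes had median SDs of 0.998, 1.57, 1.78 and 0.324 in the groups as ordered before, and 0.570, 0.529, 0.465 and 0.324 without the muscle arrays. Mucous cell genes had 0.386, 1.29, 0.239 and 0.417, and 0.419, 0.738, 0.135 and 0.417 without those arrays. Neutrophil genes were widest in HCR sham animals, with a median SD of 0.661 beside 0.317, 0.173 and 0.235. Respiratory chain genes had a mean correlation of 0.63, 0.67, 0.76 and 0.19, which was 0.25, 0.06, 0.41 and 0.19 without the muscle arrays. Alveolar type 2 cell genes had a median SD of 0.0696 in LCR smoke animals beside 0.134 in LCR sham animals, which was 0.100 without LCR sham 0442. With all arrays, LCR sham 0442 among them, none of the 13 had the higher SD under smoke in LCR animals, beside 59.0% of all genes.

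The most variable genes were in part the same in all groups. Among the 100 genes of highest SD, 43 were shared by HCR sham and HCR smoke, 30 by LCR sham and LCR smoke, 45 by the sham groups, 37 by the smoke groups, 57 by HCR smoke and LCR sham and 25 by HCR sham and LCR smoke, out of 100 in each list. The muscle arrays enter these overlaps. Of the 15 heart muscle genes, 13 were among the 100 in HCR smoke and 12 in LCR sham, beside 8 in HCR sham and 4 in LCR smoke animals. In all, 12 genes were among the 100 in all 4 groups: Bpifa1 and Scgb3a1, secreted by airway epithelium, Cyp2a3, an airway cytochrome, Fabp4 of fat cells and macrophages, the immediate early gene Fos, Ly6al, RT1-Ba, RT1-T24-3, and the heart muscle genes Myh6, Myl4, Myl7 and Tnnt2. Scgb3a1 lay between 5.40 and 10.31 in HCR sham, 6.75 and 11.76 in HCR smoke, 7.79 and 11.52 in LCR sham and 6.70 and 9.47 in LCR smoke animals. Its ranges overlapped across all groups, and its highest sham values came from HCR sham 0432 and LCR sham 0442. Cyp2a3 was highest in the same 2 sham animals, with 10.53 and 11.44.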

How the data were processed

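RNA from lung was measured on 38 Affymetrix Rat Genome 230 2.0 arrays, 1 per animal, and grouped by the titles. The values are the linear intensity of each probe set that the authors deposited, between 2.09 and 11558, and no source used here gives the software behind their normalization. Of 31099 probe sets, 57 controls were left out, and of the rest 20826 had 1 gene symbol, 436 several and 9780 none in GEO's platform annotation; 20758 matched a RefSeq gene. For each symbol the probe set of highest mean was kept (14217 genes), and log2(intensity + 16) was taken.

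Spread was tested with limma 3.58.1 in R 4.3.3 (lmFit, eBayes) on absolute deviations from the group mean, multiplied by the square root of n/(n - 1), over all 4 groups, with Benjamini-Hochberg adjustment over 14217 genes and a threshold of 0.05. Tested on simulated data, this test made false calls more often than the threshold states. Whole-transcriptome values were tested by two-sided permutation of the scaled residuals, exact with 50388 or 3432 assignments where a group has 7 animals and with 100000 draws for 12 against 12, and gene pairs by permutation of animals (Python 3.11.15, NumPy 2.4.6, pandas 2.3.3, SciPy 1.17.1, matplotlib 3.10.9). The number of arrays limits the precision.

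Genes are named as the 5 called in each direction of each comparison with the largest difference, up to 2 called members of each of 37 lists, fixed genes, the 5 most variable genes of each group and the genes of 20 pairs; others are said to be chosen after their values were seen or belong to a list. The groups, genes, lists and tests were chosen with earlier results of these data known. Alternatives covered the pseudocount, normalization, probe set choice, the filter on low genes, the muscle arrays, covariates, the centre and power of the deviation, the samples in the fit and each animal left out.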

Additional observations from a re-analysis of the deposited data

Results flagged for a closer look

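In groups of 7, an animal was singled out where its gap to the nearest other animal, as a share of the range of the group, exceeded Dixon's critical value. That was so for 46 of 246 values tested. Chance alone gives about 1 in 20 for a value not chosen for its spread. Over all genes, without such a choice, the share was larger, with 11.1% in HCR sham and 8.29% in LCR sham animals. Many of the genes tested here were chosen for a wide spread and follow the same arrays. The number of 46 values is therefore a description and is not read against these rates. Groups of 12 were not tested. HCR sham 0433 gave 15 of them, all high, with a gap share of 0.987 for Tnnc2, 0.982 for Myl11, 0.977 for Tnni2, 0.870 for Actn3, 0.966 for Ucp1, 0.994 for Myh4, 0.971 for Myh2, 0.858 for Ckm, 0.960 for Myl1, 0.670 for Acta1, 0.586 for Thrsp and 0.623 for Cyp1a1. Its list means stood out with 0.953 for skeletal muscle, 0.715 for fat cells and 0.672 for the respiratory chain.

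LCR sham 0442 gave 18. It was high for the heart muscle list (0.655), the skeletal muscle list (0.656), the mucous cell list (0.832), the hypoxia and glycolysis list (0.579) and the respiratory chain list (0.682), and low for the alveolar type 1 list (0.710). Among genes it was high for Tnnt2 (0.617), Tnnc1 (0.742), Ckm (0.896), Myl1 (0.794), Muc5b (0.901), Bpifb1 (0.710), Bpifa1 (0.646), Orm1 (0.813), Mmp12 (0.580), Gclc (0.603) and Fam111a (0.726). Its root-mean-square deviation over all genes stood out with a gap share of 0.828.

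The remaining 13 came from 7 animals. LCR sham 0444 was high for Cxcl6 (0.571) and low for Myl11 (0.630) and Gzmb (0.610). HCR sham 0434 was high for Atp6v0a4 (0.907) and the neutrophil list (0.620) and low for Mis18a (0.695). LCR sham 0446 was high for Adipoq (0.596) and Pxmp4 (0.922), LCR sham 0440 was high for Lcn2 (0.774), and HCR sham 0432 was high for Muc5b (0.624). LCR sham 0443 was high for Cdk1 (0.587) and low for RT1-Ba (0.897), and HCR sham 0439 was low for the acute phase list (0.854).

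One gene was singled out by a tested difference between the lines. The change in spread of Fam181b from sham to smoke differed by -0.17 between LCR and HCR animals (adjusted p 0.000802 in limma), at levels near the low end of the scale.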

How the results depend on the processing

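None of the 16 whole-transcriptome tests crossed the threshold under any alternative, and 42 of the 80 pair correlations passed, a count that stayed within 1.5 times under the 5 alternatives tried for it, which were chosen after seeing the data. Counts of genes with a changed spread depended strongly on the processing. In HCR animals 72 genes became 28 with a pseudocount of 1, 7 without low genes, 152 with all probe sets, 33 without the 6 muscle arrays, 3 with muscle and fat covariates, 0 with deviations from the median, 7 with squared deviations, 0 with the compared groups alone and 33 among genes of small mean difference. In LCR animals 14 became 9 without low genes, 8 with covariates, 0 with median and 4 with squared deviations, and 7 among genes of small mean difference. Between the lines under sham 29 became 5 without low genes, 81 with all probe sets, 12 with covariates, 0 with median and 7 with squared deviations, 5 with the compared groups alone, 45 with an intensity trend and robust variance and 16 among genes of small mean difference. Under smoke 3 became 5 with a pseudocount of 1, 15 with quantile normalization, 7 with median-centred arrays, 1 without low genes, 10 with the mean of probe sets, 18 with all of them, 15 without the 6 arrays, 0 with median and 0 with squared deviations, 21 with the compared groups alone and 1 among genes of small mean difference. The interaction count of 1 became 2 with a pseudocount of 1, 0 without low genes, 3 with the mean of probe sets, 6 with all of them, 2 without the 6 arrays, 2 with covariates, 0 with median and 2 with squared deviations. Leaving out 1 animal gave 23 (without HCR sham 0433) to 179 (without HCR sham 0435), 9 to 23, 14 to 101, 2 to 40 and 1 to 7 genes for the 5 comparisons in that order. Beside these limma counts of 0, an unadjusted p under 0.05 was reached by 1308 genes with the HCR groups alone, 1102 with squared deviations between the lines under smoke, and for the interaction 579 without low genes and 534 with median deviations. The cause of these moves was not tested.

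Of 40 calls of named genes, 29 held with a pseudocount of 1, 36 with quantile normalization, 18 without the 6 arrays, 13 with covariates, 6 with squared deviations, 0 with median deviations, and 8 in every fit that left out 1 animal. Without the 6 arrays and without HCR sham 0433 alone, the differences in HCR animals turned to 0.010 and 0.045 for Tnnc2, 0.0022 and 0.0011 for Myl11, 0.061 and 0.054 for Tnni2, 0.0083 and 0.011 for Ucp1, and 0.0020 and 0.0076 for Myh4. The other fits that left out 1 animal kept these differences negative, down to -1.95, -1.87, -1.78, -1.69 and -1.19 in that order. With covariates the line differences under sham turned to 0.050 for Thrsp and 0.035 for Adipoq. No paired analysis was possible because the groups share no replicate numbers. A group of 7 or 12 animals estimates an SD loosely, and low genes lie near the end of the scale, so single calls of spread are uncertain.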
